A study of Mus musculus with 11 samples.

Results

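Integrin subunit transcripts were examined in CD31hi EMCNhi endothelial cells sorted by flow cytometry from bones of BALB/c mice. High levels of both proteins mark type H capillaries in healthy marrow, but the gate alone does not show that the cells from infiltrated marrow were type H. The members were 10 genes of the count table whose Entrez identifiers map to the symbols *Itga1*, *Itga2*, *Itga3*, *Itga5*, *Itga6*, *Itga9*, *Itgav*, *Itgb1*, *Itgb4* and *Itgb5*, out of 27179 rows in all. The tumour-burdened mice carried 4T1.2 cells, a bone-seeking mammary tumour line derived from BALB/c and marked with red fluorescent protein. Marrow microdissected from infiltrated areas gave the met libraries and adjacent marrow without fluorescence gave the non-met libraries, while age-matched healthy mice with no tumour gave the controls. There were 3 met, 6 non-met and 2 control libraries of young adult animals that carried no engineered allele, made from total RNA with the low-input SMART-Seq v4 kit. They came from 6 pools of at most 4 mice, 4 pools burdened and 2 healthy. Pool Burdened-1 gave non-met 1 and non-met 5, Burdened-2 gave non-met 2, non-met 6 and met 1, Burdened-3 gave non-met 3 and met 2, and Burdened-4 gave non-met 4 and met 3. Libraries of one pool share animals, so P values over libraries measure in part the spread between preparations of the same mice.

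Total counts ran from 733342 in non-met 4 to 19539761 in control 1, and mitochondrial transcripts took 4.33% to 17.8% of the counts, with the highest shares in non-met libraries. The sort markers were present in all 11 libraries, with *Pecam1* (CD31) at 972 to 3162 CPM (counts relative to library size, TMM-scaled), *Emcn* at 351 to 1361 CPM and *Cdh5* (VE-cadherin) at 1001 to 2099 CPM. Neutrophil and other granulocyte transcripts, summed over 15 marker genes, were at 174 and 388 CPM in the controls, 403 to 5279 in non-met and 95.5 to 207 in met libraries. The sum of 20 osteolineage, stromal and mural genes was 4300 and 10974 CPM in the controls, 1409 to 4951 in non-met and 578 to 3396 in met. For 17 epithelial and carcinoma genes the sum was 17.6 and 88.3 CPM in the controls, 36.1 to 691 in non-met and 33.2 to 163 in met, with *Krt5* at 0 reads in every library. *Lcn2* is in both this list and the granulocyte list. It had 1004, 1170 and 573 reads in non-met 1, 2 and 6, but 4, 17 and 2 in met 1 to 3. The highest non-met sums thus include a granulocyte marker. *Krt8* had 1 to 116 reads in non-met and 26 to 172 in met. Per the study's methods, hematopoietic cells had been gated out with antibodies to CD45 and Ter-119. The part of any of these cells in the integrin counts was not tested, and in a sorted bulk sample a change in the number of cells of a type cannot be told apart from a change in RNA per cell.

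Integrins are receptors made of 1 alpha and 1 beta chain that hold a cell to its matrix and pass signals through talin and kindlin to the actin skeleton. In endothelium they anchor the cell to the laminin and collagen IV of its basement membrane, and they bind fibronectin and other provisional matrix when vessels sprout. The beta chain encoded by *Itgb1* is the common partner that can pair with each of the 7 alpha chains here. *Itga1* and *Itga2* encode collagen receptors, *Itga3* and *Itga6* laminin receptors, and *Itga5* the fibronectin receptor. *Itgav* encodes an alpha chain that recognises the RGD motif and has several beta partners, among them that of *Itgb5*, which binds vitronectin. *Itga9* encodes a receptor for tenascin-C, osteopontin, VCAM-1 and EMILIN1, and the *Itgb4* chain pairs with that of *Itga6* and is joined to plectin in hemidesmosomes.

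The promoter windows of 3 members are shown because *Itgb1* is the one member whose count passed a test, and *Itgav* and *Itgb5* encode the 2 chains of one receptor and had the highest correlation among the members. The windows run from 250 bases before to 50 bases after the start site in RefSeq (GRCm38.p6), which for *Itgav* is 2094 bases inside the span of its RefSeq gene record. Capitals mark the GC box letters GGGCGG on either strand.
*Itgb1* (8:128685404-128685703, plus strand): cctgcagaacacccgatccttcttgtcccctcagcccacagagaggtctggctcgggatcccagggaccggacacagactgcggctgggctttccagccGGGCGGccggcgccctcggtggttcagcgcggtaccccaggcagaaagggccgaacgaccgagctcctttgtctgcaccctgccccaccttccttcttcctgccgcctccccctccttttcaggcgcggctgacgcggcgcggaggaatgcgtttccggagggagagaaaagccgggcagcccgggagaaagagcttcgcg
*Itgav* (2:83724147-83724446, plus strand): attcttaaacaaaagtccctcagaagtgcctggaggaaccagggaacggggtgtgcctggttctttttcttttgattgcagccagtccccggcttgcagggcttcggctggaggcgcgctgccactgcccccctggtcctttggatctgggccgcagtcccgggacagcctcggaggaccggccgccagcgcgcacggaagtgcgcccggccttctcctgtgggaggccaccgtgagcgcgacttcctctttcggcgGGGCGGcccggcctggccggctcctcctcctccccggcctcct
*Itgb5* (16:33829415-33829714, plus strand): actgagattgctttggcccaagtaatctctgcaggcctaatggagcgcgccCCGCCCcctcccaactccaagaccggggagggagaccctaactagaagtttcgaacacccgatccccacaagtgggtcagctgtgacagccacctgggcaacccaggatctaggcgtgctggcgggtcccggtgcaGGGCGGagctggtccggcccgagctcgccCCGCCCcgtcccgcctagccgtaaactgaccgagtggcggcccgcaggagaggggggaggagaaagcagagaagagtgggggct
All 3 windows were rich in G and C, at 67.3% for *Itgb1*, 67.3% for *Itgav* and 65.7% for *Itgb5*, against a median of 52.7% over the promoters of 27025 genes. The GC box letters occurred once in *Itgb1*, once in *Itgav* and 3 times in *Itgb5*. Windows were available for 8 of the 10 members, but that of *Itga9*, whose start site is 104983 bases inside the span of its RefSeq gene record, was left out here. Of the other 7, 6 held GGGCGG, against 35.9% of all promoters. A match to the ETS letters CCGGAA was found in 2 of the 7, those of *Itgb1* and *Itga3*, against 15.2% of all. The TEAD letters GGAATG were found in *Itgb1*, against 14.6% of all. The AP-1 letters TGANTCA and TATAAA were found in 0 of the 7 windows, against 7.93% and 14.2% of all. Such matches describe letters only.

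*Itgb1* was the most abundant member in each of the 11 libraries. Its gene lies on chromosome 8 at 128685654 to 128733579 of GRCm38, on the plus strand, with 16 exons in the longest GENCODE transcript and no other annotated gene within its span. It was measured at 896 and 790.5 CPM in controls 1 and 2. In non-met libraries 1 to 6 its level was 911, 1799, 1121, 2164, 1089 and 1388 CPM. The 3 met libraries were at 2190.0, 1885 and 1912 CPM. Every met and every non-met library was above both controls, although non-met 1 exceeded control 1 by little, and the met libraries overlapped the non-met range through non-met 4.

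The question for each member was whether endothelium of infiltrated marrow differed from that of adjacent marrow and from healthy marrow. *Itgb1* rose in met against control, with a fitted log2 fold change of 1.10 (SE 0.0433, voomLmFit adjusted P = 4.44e-15). It also rose in non-met against control, by 0.68 on the log2 scale (SE 0.110, voomLmFit adjusted P = 0.00167). In met against non-met the fitted log2 difference was 0.42 (SE 0.106) and did not pass the threshold of 0.05 (voomLmFit adjusted P = 0.108). On the unweighted log2 CPM scale the group means were 9.72 ± 0.13 (SD, n = 2) in control, 10.40 ± 0.47 (SD, n = 6) in non-met and 10.96 ± 0.12 (SD, n = 3) in met. The exact two-sided permutation test gave *Itgb1* P = 0.1 for met against control, which is the smallest that 10 splits allow, P = 0.107 for non-met against control over 28 splits and P = 0.0833 for met against non-met over 84 splits.

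The *Itgb1* calls depended on the test, on the unit and on single libraries. voomLmFit without sample weights kept both calls, at 1.09 (SE 0.0258, adjusted P = 1.27e-21) for met and 0.67 (SE 0.101, adjusted P = 0.000289) for non-met against control. limma-trend, which fits another variance model, gave a like fold, 1.24, but a larger error (SE 0.316) and an adjusted P of 0.285 for met against control. The edgeR quasi-likelihood test and DESeq2 did not call it in any comparison, with adjusted P of 0.886 and 0.210 for met against control and 0.944 and 0.498 for non-met against control. Summing the libraries of one pool and group, so that pools are the units, kept the call in met (1.17, voomLmFit adjusted P = 6.67e-05) but not in non-met against control (0.72, adjusted P = 0.0729). Leaving out control 1 ended both calls against control (voomLmFit adjusted P = 0.136 and 0.358). Leaving out non-met 2 reduced the non-met difference to 0.14 (adjusted P = 0.433) and raised that of met against non-met to 0.99 (adjusted P = 3.95e-07). Leaving out either control also brought met against non-met past the threshold (adjusted P = 0.00889 without control 1 and 0.0193 without control 2), whereas leaving out non-met 1 lowered that difference to 0.19 (adjusted P = 0.619).

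**Figure D1:**
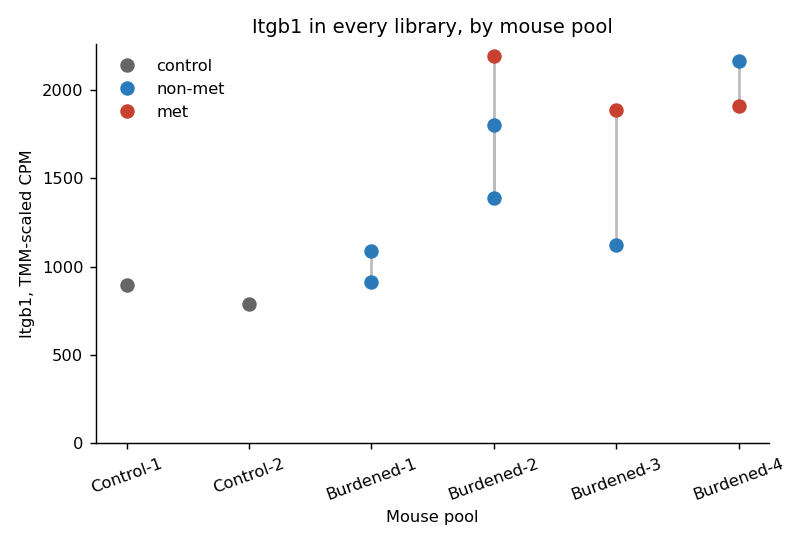
TMM-scaled CPM of *Itgb1* (vertical axis) in every library, placed by mouse pool (horizontal axis), with grey lines joining libraries of one pool. Both controls, at 896 and 790.5 CPM, are below all 9 libraries of burdened mice, and the met library is the highest of its pool in Burdened-2 and Burdened-3 but not in Burdened-4.

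Within pools, *Itgb1* was higher in met than in non-met marrow of the same mice in 2 of 3 pools. The differences on the log2 CPM scale were 0.47 in Burdened-2, where met 1 was compared with the mean of non-met 2 and 6, 0.75 in Burdened-3 and -0.18 in Burdened-4. Non-met libraries of the same pool differed by 0.26 in Burdened-1 and 0.37 in Burdened-2, which the first 2 differences exceeded and the third did not. A fit that took the mouse pool as a fixed replicate block called no member in met against non-met. Other endothelial transcripts did not all follow *Itgb1*. The summed level of 16 general endothelial genes was 10282 and 15499 CPM in the controls, 11913 to 19660 in non-met and 16865 to 19742 in met, so that the met libraries were above both controls and the non-met libraries overlapped them. Of these 16 genes voomLmFit called 4 higher in met against non-met, 4 higher and 1 lower in met against control, and 1 lower in non-met against control, where 0.418%, 1.2% and 0.636% of all genes were called. The call of *Kdr*, the VEGF receptor VEGFR2, in met against control had a fitted log2 difference of -0.48 (SE 0.0620, adjusted P = 2.21e-05), but its unweighted group means were 10.60 log2 CPM in control and 10.68 in met, and the met libraries were within the control range of 1161 to 2075 CPM. For *Eng*, endoglin, the fitted difference in non-met against control was -0.80 (SE 0.144, adjusted P = 0.00603), against -0.28 between the unweighted means, and the groups overlapped. *Pecam1* rose in met against control by 1.342 on the log2 scale (SE 0.0149, voomLmFit adjusted P = 8.90e-27) and against non-met by 0.89 (SE 0.134, adjusted P = 0.000455), and the part of these genes in the *Itgb1* counts was not tested. No other test called any of the 16 genes, *Pecam1* having adjusted P of 0.0984, 0.413 and 0.0546 against control and 0.911, 0.563 and 0.593 against non-met by limma-trend, the quasi-likelihood test and DESeq2.

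Over the whole list, met against non-met had 0 of 10 members called by voomLmFit, where 0.418% of the 11949 genes tested were called. At an unadjusted P under 0.05 there was 1 member of 10, beside 7.24% of all genes, and in met and non-met against control there were 4 each, beside 14.1% and 17% of all genes. limma-trend, the quasi-likelihood test and DESeq2 also called 0 members in met against non-met, beside 0.0167%, 0.142% and 2.73% of all genes. Met against control had 1 of 10 called (*Itgb1*), against 1.2% of all genes, and non-met against control had the same gene called, against 0.636%. The median fitted log2 difference of the members was 0.38, 1.57 and 0.79 in these 3 comparisons, beside 0.08, -0.09 and -0.33 over all genes tested. The medians against control moved with single controls: without control 2 they were 0.75 in met and 0.026 in non-met, beside -0.48 and -0.94 over all genes of that fit, and without control 1 they were 2.51 and 1.41, beside 0.32 and 0.20. The median in met against non-met ran from 0.33 without met 2 to 0.64 without met 3. The last 2 comparisons share the control libraries. Groups did not overlap for *Itgb1*, *Itga3* and *Itgav* in met against control, all 3 higher, where 8.43% of all genes were higher without overlap. In non-met against control *Itgb1* was the one member without overlap, where 1.26% of all genes were higher in this way. Both burdened groups were above both controls without overlap for 0.611% of all genes.

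**Figure D2:**
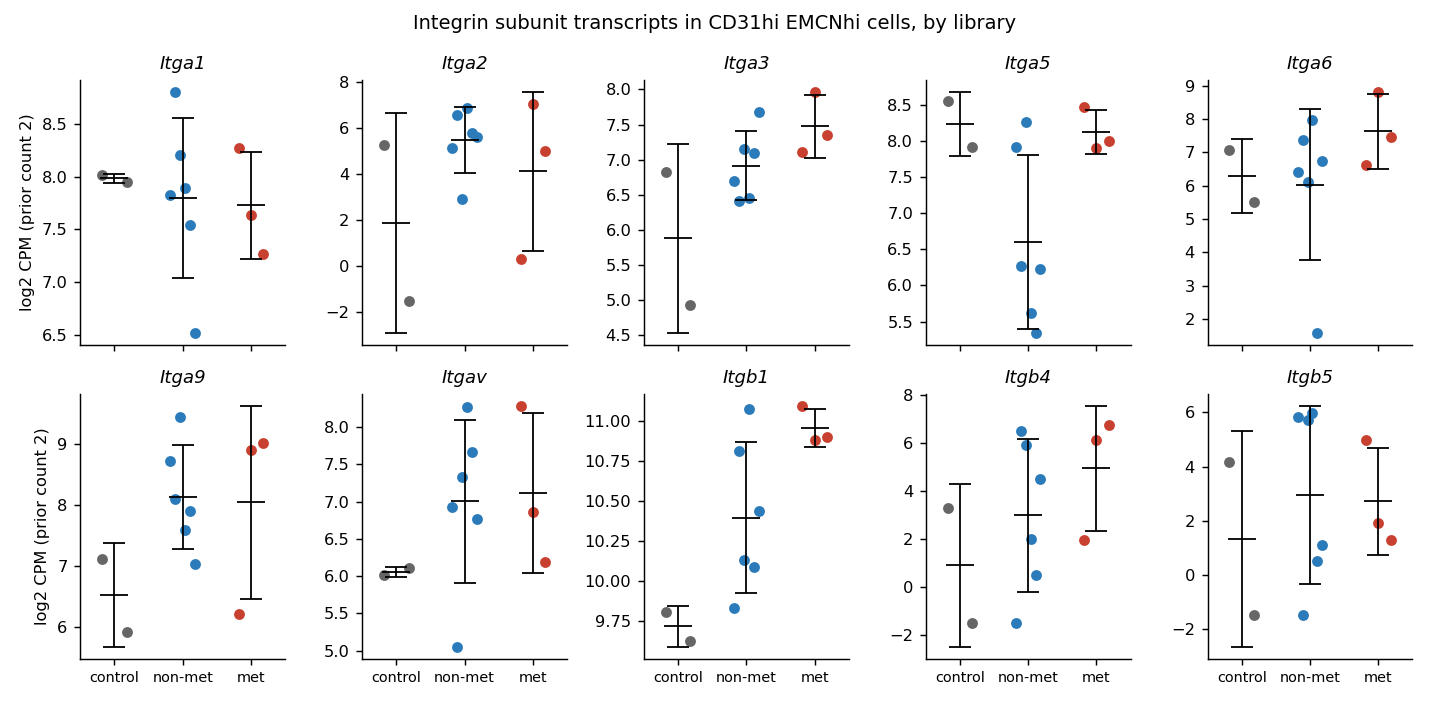
Log2 CPM (vertical axis, prior count 2) of the 10 members in control, non-met and met libraries, 1 point per library, with bars for the mean and SD of each group. The *Itgb1* points of the burdened groups lie above both controls, whereas *Itga2*, *Itgb4* and *Itgb5* run from a few reads or none to several log2 units higher within groups.

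The collagen receptor chain of *Itga1* varied least among the alpha chains (SD 0.59 on the log2 CPM scale over 11 libraries). The gene is on chromosome 13 at 114958079 to 115101964, on the minus strand, and shares exonic bases with the GENCODE model Gm49395 on the same strand, which has no row in the count table. *Itga1* was at 258 and 247 CPM in the controls, 227, 446, 295, 237, 186 and 91.5 CPM in non-met 1 to 6, and 308, 199 and 154 CPM in met 1 to 3. The groups overlapped, and the fitted log2 differences were -0.59 (SE 0.529), -0.49 (SE 0.428) and 0.10 (SE 0.435) in the order met against non-met, met against control and non-met against control, with voomLmFit adjusted P from 0.661 to 0.896. The first shrank to -0.17 without non-met 2, -0.22 without met 3 and -0.07 by limma-trend, and the second to -0.12 without met 3.

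*Itga2*, the second collagen receptor chain, lies beside it on chromosome 13 at 114833081 to 114932100 and varied far more. Its level was 38.3 CPM in control 1 and 0 in control 2, where 3 reads would have been 0.614 CPM before scaling. The non-met libraries were at 35.5, 96.8, 7.15, 118, 54.6 and 49.7 CPM and the met libraries at 0.881, 133 and 32.4 CPM. Control 2 and met 1 were at the bottom, with 0 and 2 reads, while control 1 and met 2 had 784 and 700. The fitted log2 differences against control, 6.65 for met (SE 2.69, adjusted P = 0.226) and 7.42 for non-met (SE 2.36, adjusted P = 0.118), rest on the empty control 2. Without that library the differences were -0.52 for met and 0.19 for non-met.

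The laminin receptor chain of *Itga3* (chromosome 11, 95044475 to 95076844) was lowest in a control and highest in a met library. It was at 113 and 30.1 CPM in the controls, at 103, 84.9, 142, 86.8, 136 and 205 CPM in non-met and at 137, 249.8 and 163 CPM in met libraries. All 3 met libraries were above both controls, and *Itga3* was the one member higher in met than the non-met mean in all 3 pools, by 0.05, 0.81 and 0.90 on the log2 CPM scale. The first value sets met 1 against the mean of non-met 2 and 6, which differed by 1.27 on that scale. Met 1 was itself below non-met 6 of the same pool. The fitted differences did not pass the threshold, at 0.74 (SE 0.633) against non-met and 1.64 (SE 0.937) against control on the log2 scale (voomLmFit adjusted P = 0.816 and 0.464). Without control 2 the latter was 0.76, and without control 1 it was 2.66.

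*Itga6*, the other laminin receptor chain (chromosome 2, 71786886 to 71858427), reached the highest single-library level of any alpha chain per length, 107 RPKM in met 2, where RPKM are the TMM-scaled CPM divided by gene length in kilobases. It measured 135 and 45.3 CPM in the controls, 85.4, 164, 68.7, 248, 2.65 and 107 CPM in non-met, and 97.3, 450.2 and 175 CPM in met libraries. Non-met 5 held 5 reads of this gene, far under its own pool partner non-met 1, which held 474. The met range contained 3 of the 6 non-met values. Fitted log2 differences were 1.43 (SE 0.837) in met against non-met and 1.499 (SE 0.929) in met against control (adjusted P = 0.750 and 0.507), the former falling to 0.77 without met 2 and the latter to 0.81 without control 2 and 0.83 without met 2. In non-met against control the value was 0.07 (SE 1.09), and its sign turned under 10 of 24 alternative settings.

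The *Itgb4* chain, its hemidesmosomal partner, was scarce. The gene lies on chromosome 11 at 115974725 to 116008412 and shares exonic bases with the opposite-strand B230344G16Rik, and whether reads were assigned by strand is not stated, so the 2 cannot be told apart there. *Itgb4* was at 9.53 and 0 CPM in the controls, 0, 89.1, 60.3, 3.62, 1.06 and 22.2 CPM in non-met and 3.52, 68.8 and 107 CPM in met libraries. Only 7 of 11 libraries had more than 3 reads of it, and each group held low libraries. Its fitted log2 difference in met against control was 7.93 (SE 2.60, adjusted P = 0.125), with control 2 at 0 reads, and was 2.37 without that library. Per kilobase, *Itga6* exceeded *Itgb4* in all 11 libraries. The keratins *Krt8*, *Krt18* and *Krt19* together were at 4.93, 83.1, 68.0 and 9.75 CPM in the 4 libraries richest in *Itgb4* (non-met 2, non-met 3, met 2 and met 3), and at 83.5 and 63.3 CPM in non-met 6 and non-met 4, where *Itgb4* was at 22.2 and 3.62 CPM. Their part in the *Itga6* and *Itgb4* counts was not tested.

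*Itga5*, the fibronectin receptor chain (chromosome 15, 103344286 to 103366791), had levels of 374 and 241 CPM in the controls and 352, 239 and 255 CPM in met libraries. The non-met libraries split widely, with 241 and 306 CPM in non-met 1 and 3 but 76.8, 48.8, 40.3 and 74.6 CPM in non-met 2, 4, 5 and 6. The last 4 were thus below all control and all met libraries, and the other two were within the met range. The fitted log2 differences were -1.53 (SE 0.653) in non-met against control, 1.14 (SE 0.694) in met against non-met and -0.39 (SE 0.372) in met against control. None passed the threshold (voomLmFit adjusted P = 0.241, 0.751 and 0.695), and the first 2 kept their direction under every alternative run.

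*Itgav* (chromosome 2, 83722303 to 83806917, with exonic bases shared with the opposite-strand Gm13684, which has no row in the count table) was at 64.2 and 68.5 CPM in the controls. It was at 121, 32.8, 161, 308, 203 and 108 CPM in non-met and at 311, 116 and 72.8 CPM in met libraries. The met libraries were all above the controls, and non-met 2 was below them. Fitted log2 differences were 0.17 (SE 0.723), 0.64 (SE 0.870) and 0.47 (SE 0.846), again with no call (adjusted P from 0.742 to 0.978). They moved to 0.91 and 1.37 in the first 2 comparisons without met 3, and in non-met against control to 1.16 without non-met 2 and 0.28 without non-met 3. In met against non-met the value also fell as low as -0.50 with 1 library left out, and its sign turned under 5 of 26 alternatives. The *Itgb5* partner (chromosome 16, 33829665 to 33949338) was at 17.4 and 0 CPM in the controls, 56.2, 0, 52.9, 63.3, 1.06 and 1.78 CPM in non-met and 30.8, 3.41 and 2.07 CPM in met libraries. It was near 0 in control 2 and in 3 non-met libraries, and the groups overlapped.

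*Itga9* (chromosome 9, 118606709 to 118901003) had the largest fitted differences against control among the members with more than 3 reads in every library. It was at 139 and 60.3 CPM in the controls, 419, 271, 693, 192, 239 and 129.7 CPM in non-met and 74.0, 474 and 514 CPM in met libraries. Among the burdened libraries 5 of 6 non-met libraries and 2 of 3 met libraries were above both controls, with non-met 6 and met 1, both of pool Burdened-2, as the exceptions. The fitted log2 differences were 2.11 (SE 0.795) in met and 1.76 (SE 0.804) in non-met against control, and 0.34 (SE 0.532) between met and non-met (voomLmFit adjusted P = 0.185, 0.272 and 0.921). Both differences against control kept their direction under all 24 alternatives and were called under none of them, but that of met fell to 1.16 without met 3.

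**Figure D3:**
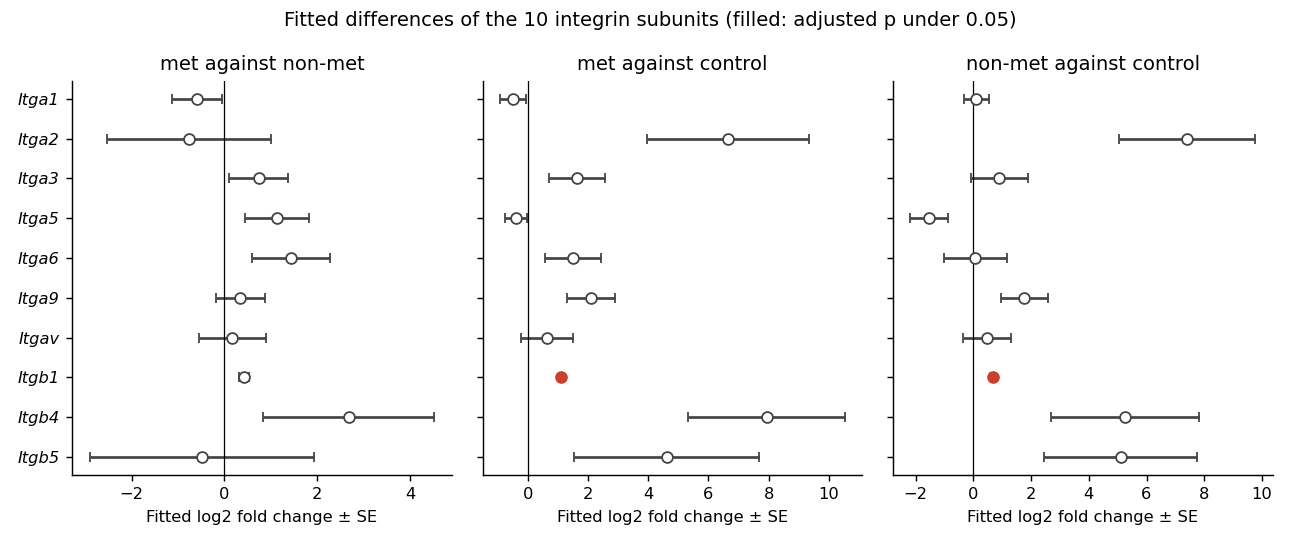
Fitted log2 fold changes with their standard errors (horizontal axis) of the 10 members in the 3 comparisons, from voomLmFit, where a filled point has an adjusted P under 0.05. *Itgb1* is filled against control at 1.10 and 0.68, and the widest bars belong to *Itga2*, *Itgb4* and *Itgb5*.

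Levels of different genes were compared only per length, in RPKM with the gene length given in the count file. *Itgb1* led with a mean of 350.0 ± 127 RPKM (SD, n = 11). Then came *Itga5* at 46.8 ± 28.2, *Itga9* at 41.1 ± 29.0, *Itga1* at 40.2 ± 15.4, *Itga6* at 34.1 ± 29.0, *Itga3* at 27.2 ± 12.4 and *Itgav* at 20.2 ± 13.5 RPKM (SD, n = 11 each). At the bottom were *Itga2* at 12.2 ± 10.9, *Itgb5* at 6.34 ± 7.75 and *Itgb4* at 5.39 ± 6.55 RPKM (SD, n = 11 each). The step from *Itgb1* to the next gene held in 11 of 11 libraries. No other neighbours in the order were separated beyond their spread: *Itga5* was above *Itga9* in 3 of 11 libraries, *Itga9* above *Itga1* in 6, *Itga1* above *Itga6* in 7, *Itga6* above *Itga3* in 6 and *Itga3* above *Itgav* in 7. *Itgav* was above *Itga2* in 9, *Itga2* above *Itgb5* in 7 and *Itgb5* above *Itgb4* in 6 libraries. With the longest GENCODE transcript as the length, *Itga1* fell from the fourth to the sixth place, at 21.9 RPKM, *Itga6* and *Itga3* each moved up, and the rest kept their places.

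Among the 3 beta chains, *Itgb1* made up at least 91.2% of the summed RPKM in every library, *Itgb5* at most 7.31% and *Itgb4* at most 3.67%. The ratio of *Itgb1* to the sum of the 7 alpha chains was 0.963 and 1.43 in the controls, ran from 0.931 to 2.28 in non-met and was 2.19, 1.24 and 1.83 in met libraries. The groups overlapped in this ratio, and met libraries 1 to 3 also had alpha sums of 238, 361 and 249.5 RPKM, against 222 and 132 RPKM in the controls and 144 to 287 RPKM in non-met.

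The leading alpha chain differed from library to library. *Itga5* led in both controls, with 38.6% and 42.0% of the alpha sum, and in met 1 with 33.8%. *Itga9* led in non-met 1, non-met 3, non-met 5 and met 3, with 23.3% to 34.0%. *Itga6* led in non-met 4 (26.1%) and met 2 (29.6%), *Itga1* in non-met 2 (34.8%) and *Itga3* in non-met 6 (29.0%). *Itga2* and *Itgav* led in none of the 11 libraries. As a share of the alpha sum, *Itga5* was 13.5% ± 9.04 (SD, n = 6) in non-met and 24.1% ± 9.39 (SD, n = 3) in met, both under the controls at 40.3% ± 2.39 (SD, n = 2). Its own level was 70.4 ± 21.5 RPKM (SD, n = 2) in controls, 30.0 ± 25.8 (SD, n = 6) in non-met and 64.5 ± 14.1 (SD, n = 3) in met. The mean alpha sums were 177, 206 and 283 RPKM, so the lower share in met went with a larger sum. *Itga9* took 7.64% ± 1.66 (SD, n = 2) in controls, 21.1% ± 8.64 (SD, n = 6) in non-met and 17.3% ± 12.4 (SD, n = 3) in met. The laminin receptor chains together took 18.9% ± 8.54, 26.9% ± 11.6 and 31.8% ± 11.3 (SD) in these groups, which overlapped, and the collagen receptor chains 27.4% ± 5.50, 27.2% ± 10.5 and 17.7% ± 4.18 (SD). The summed stromal markers were 4300 and 10974 CPM in the controls. Among burdened libraries they were highest in non-met 5 at 4951 CPM, where *Itga5* took 6.39%, and in met 1 at 3396 CPM, where it took 33.8%, and their part in these shares was not tested.

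**Figure D4:**
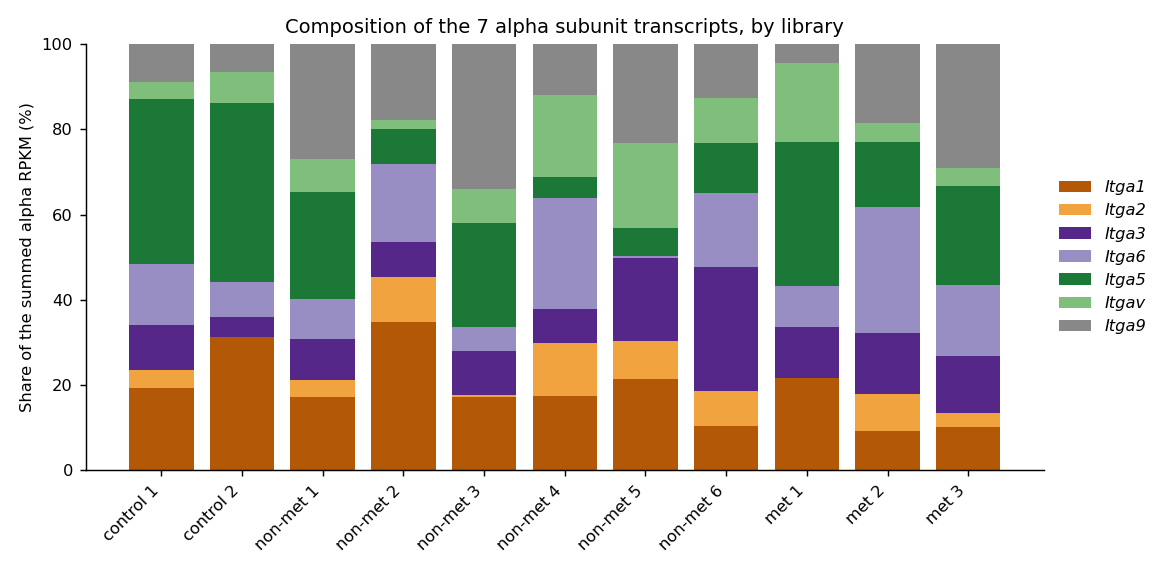
Share of each alpha chain in the summed RPKM of the 7 alpha chains (vertical axis, percent) in every library (horizontal axis). The *Itga5* segment is the largest in both controls and met 1, and *Itga9* is the largest in 4 of the 9 libraries of burdened mice.

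Pairwise correlations of the members over the 11 libraries are given as a description, since the libraries differ in depth and some share a pool. Of the 45 pairs, 32 had a Pearson r above 0, with a median of 0.16 and a range from -0.50 (*Itga2* and *Itga5*) to 0.64 (*Itgav* and *Itgb5*). The partners *Itga6* and *Itgb4* had r = 0.50, below the values of *Itgb4* with *Itga3* (0.60), *Itgb1* (0.54) and *Itga9* (0.51). The genes most like a member were sought among the 3566 genes with a mean of at least 5 log2 CPM, a level that 7 members reached. High values can arise from a search of that size over 11 libraries, and none was tested. For *Itgb1* they were *Tceal8* (r = 0.92), *Podxl* (0.87), the sialomucin podocalyxin of endothelium, and *Glul* (0.86), glutamine synthetase. The closest gene was *Ergic3* for *Itga1* (0.94), *Rab31* for *Itga3* (0.90), *Rnpepl1* for *Itga5* (0.93), *Fat4* for *Itga6* (0.95), *Map2k3* for *Itga9* (0.88) and *Lgals9*, which encodes galectin-9, for *Itgav* (0.87).

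**Figure D5:**
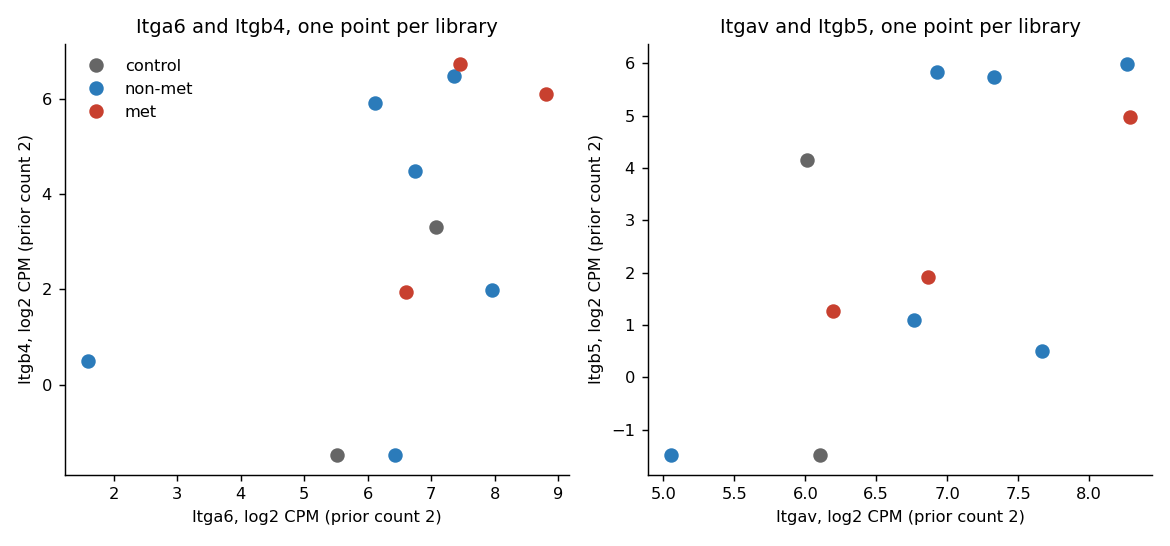
Log2 CPM (prior count 2) of *Itgb4* against *Itga6* (left) and of *Itgb5* against *Itgav* (right), 1 point per library, coloured by group. The beta chains reach the lowest values in libraries where the alpha chain is present, and the Pearson r over 11 libraries is 0.50 on the left and 0.64 on the right.

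The other integrin subunits were mostly rare. Of 17 listed, 13 exceeded 3 reads in any library, 5 of them in 1 library only, and the most widely detected, *Itgb2*, the beta chain of leukocyte integrins, did so in 7 of 11 libraries. *Itga2b*, the alpha chain of the platelet fibrinogen receptor, rose in met against control (voomLmFit adjusted P = 0.0406). It had 0 reads in both controls and in 5 non-met libraries, 26.9 CPM in non-met 2, and 99.99, 29.9 and 30.6 CPM in met 1 to 3. Against a floor of 3 reads over both controls the met mean was 466-fold higher, which allows for counting error only. The ratio rests on the depth of control 1 and on met 1, being 101-fold without control 1 and 264-fold without met 1. Neither this ratio nor the fitted fold is a bound. Libraries of one group can differ more than counting error allows, as for *Itga2* with 784 and 0 reads in controls 1 and 2. limma-trend and the quasi-likelihood test did not call *Itga2b* (adjusted P = 0.702 and 0.886), and DESeq2 gave it no adjusted P. The permutation test gave P = 0.1 for met against control, the smallest that 10 splits allow. Its partner *Itgb3*, which also pairs with the *Itgav* chain, was at 0 in the controls, at 0 to 5.43 CPM in non-met and at 0.440, 41.1 and 30.3 CPM in met (voomLmFit adjusted P = 0.172 against control). Megakaryocyte and platelet markers in the same libraries were sparse: *Gp9*, *Treml1* and *Tubb1* had 0 reads in all libraries, and *Pf4* had 0, 12.5 and 22.4 CPM in met 1 to 3 and 51.4 CPM in non-met 1, where *Itga2b* had none.

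The remaining subunits did not pass the test in any comparison or were too rare to be tested. *Itga8*, a chain of mesenchymal cells, was at 29.4 and 21.9 CPM in the controls, up to 13.7 CPM in non-met and 0.881, 33.9 and 6.31 CPM in met. *Itga4* reached 91.2 CPM in non-met 5, *Itgb2* 73.1 CPM in non-met 2, and *Itgam*, the alpha chain of the myeloid receptor Mac-1, 24.0 CPM in non-met 6. *Itga7* (476 reads in non-met 2), *Itgae* (219 in control 1), *Itga10* (137 in non-met 5), *Itgad* (171 in non-met 5) and *Itgb8* (27 in met 2) each exceeded 3 reads in 1 library. *Itga11* did so in control 1 and met 3, and *Itgb6* in non-met 3 and met 2. *Itgal*, *Itgax*, *Itgb2l* and *Itgb7* had at most 3 reads anywhere.

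Among the ligands of these receptors the collagen IV chains were called. Of 26 ligand genes tested, 2 rose in met against non-met, 3 rose and 1 fell in met against control, and 1 rose and 1 fell in non-met against control, with medians of 0.62, 0.74 and -0.04 on the log2 scale beside 0.08, -0.09 and -0.33 over all genes. Of all genes tested, 0.418%, 1.2% and 0.636% were called in these comparisons. The collagen IV chain *Col4a1*, a ligand of the *Itga1* and *Itga2* receptors, was at 5012 and 2220 CPM in the controls, 4225 to 8331 in non-met, and 8294, 9929 and 12264 CPM in met. It rose in met by 0.81 against non-met (SE 0.0705, voomLmFit adjusted P = 6.65e-08) and by 1.81 against control (SE 0.357, adjusted P = 0.00607), and all 4 tests called the latter. *Col4a2* rose by 0.90 (SE 0.175, adjusted P = 0.0115) and 1.21 (SE 0.184, adjusted P = 0.000246), the latter again by all 4 tests. Against non-met the quasi-likelihood test called both chains, but limma-trend (adjusted P = 0.125 for *Col4a1* and 0.259 for *Col4a2*) and DESeq2 (0.215 and 0.192) did not. *Col4a2* also rose in non-met against control, by 0.31 (SE 0.0566, adjusted P = 0.00670), a call of voomLmFit alone. These 2 genes had been picked by the study from the same libraries and are not independent evidence on the list.

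*Adam15*, a disintegrin with an RGD site, rose in met against control by 1.24 on the log2 scale (SE 0.165, adjusted P = 3.80e-05). *Tnc*, tenascin-C and a ligand of the *Itga9* receptor, fell by 3.24 (SE 0.802, adjusted P = 0.0453), with 520 and 494 CPM in controls and 218, 101 and 23.4 CPM in met libraries. Neither was called by limma-trend, the quasi-likelihood test or DESeq2. *Svep1*, another ligand of that receptor, had 27.96 and 69.5 CPM in the controls and no read in any non-met library, and it fell there (voomLmFit adjusted P = 0.0346), without a call by limma-trend, the quasi-likelihood test or DESeq2 (adjusted P = 0.427, 0.572 and 0.0571). Fibronectin (*Fn1*) was at 41.3 and 4.07 CPM in the controls, 79.1 to 375 in non-met and 96.5 to 298 in met, with all 9 burdened libraries above the controls but no voomLmFit call (adjusted P = 0.264 and 0.316 for non-met and met), while DESeq2 called non-met against control (adjusted P = 0.00552). *Spp1*, osteopontin, was at 71.4 and 58.4 CPM, 19.6 to 404 and 102 to 362 CPM, and *Vtn* had no read in any library. The laminin chains *Lama4*, *Lama5*, *Lamb1* and *Lamc1* were not called in any comparison, and *Lama4* was at 295 and 186 CPM in controls, 92.3 to 391 in non-met and 362 to 482 in met. *Emilin1* was at 273 and 89.2 CPM, 213 to 599 and 249 to 339 CPM, without a call. Other ligand calls were made by single tests and not by voomLmFit. DESeq2 called *Svep1* higher in met against non-met (adjusted P = 0.0265, voomLmFit 0.753), with 89.0, 14.2 and 0 CPM in met 1 to 3. The quasi-likelihood test called *Vcam1* lower in non-met against control (adjusted P = 0.0337, voomLmFit 0.0903).

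Inside the cell, 1 of 16 activation genes tested and 0 of 28 adhesion complex genes were called by voomLmFit across the 3 comparisons, in which 0.418%, 1.2% and 0.636% of all genes were called. Their median fitted log2 differences were 0.27, 0.07 and -0.42 for activation and 0.14, 0.28 and 0.15 for the adhesion complex, beside 0.08, -0.09 and -0.33 over all genes. The one was *Rasip1*, an endothelial Rap1 effector, which rose in met against control by 0.68 on the log2 scale (SE 0.123, adjusted P = 0.00270), from 489 and 693 CPM in the controls to 744 to 958 CPM. The other 3 tests each gave *Rasip1* an adjusted P of 1. DESeq2 called 1 activation gene, *Fermt3*, the kindlin of blood cells, lower in met against non-met (adjusted P = 0.0247). For the adhesion complex no gene was called by limma-trend, the quasi-likelihood test or DESeq2 either. Talin (*Tln1*) ran from 309 to 1005 CPM over all libraries and its fitted log2 differences were 0.13, 0.17 and 0.04, the smallest adjusted P being 0.816. Kindlin-2 (*Fermt2*, 90.5 to 443 CPM), vinculin (*Vcl*, 72.4 to 409 CPM), paxillin (*Pxn*, 194 to 957 CPM), focal adhesion kinase (*Ptk2*, 36.4 to 418 CPM) and integrin-linked kinase (*Ilk*, 2.49 to 325 CPM) were likewise not called. Among 12 membrane proteins that associate with integrins, *Cd9*, a tetraspanin, rose by 1.97 (SE 0.485, adjusted P = 0.0439) and *Nrp1*, the co-receptor neuropilin-1, fell by 1.01 (SE 0.211, adjusted P = 0.0110) in met against control. No other test called either, the adjusted P being 0.410 or more for *Cd9* and 0.974 or more for *Nrp1*. The median fitted log2 difference of these 12 genes was 0.43, -0.22 and 0.17 in the 3 comparisons. The tetraspanin *Cd151*, at 95.9 to 341 CPM, and *Plec*, the plectin that binds the *Itgb4* tail, at 288 to 1256 CPM, were not called. All 3 met libraries were above both controls for each, as they were for 8.43% of all genes. In the hemidesmosome list 0 of 3 genes tested were called in any comparison. Of 7 genes for latent TGF-beta, which the *Itgav* receptors activate, *Tgfb3* fell in non-met against control by voomLmFit (adjusted P = 0.0379) but not by limma-trend, the quasi-likelihood test or DESeq2 (adjusted P = 0.701, 0.944 and 0.281), with 22.6 and 58.7 CPM in controls and at most 0.933 CPM in non-met, while the median fitted log2 difference of the 7 was 1.35, -2.26 and -2.68. DESeq2 called another of the 7, *Ltbp2*, lower in non-met against control (adjusted P = 0.00738, voomLmFit 0.378).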

How the data were processed

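RNA-seq libraries of sorted CD31hi EMCNhi cells were analysed from the deposited raw counts of reads per Entrez gene. Per the study's methods the authors used Rsubread for alignment to mm10, and featureCounts with its built-in annotation gave the counts, which are not normalised. Whether strand was used is not given in the sources used here. The 11 single-library tables held the counts of the series table. Symbols came from RefSeq GRCm38.p6 (25275 rows) and GENCODE (18). Unnamed (1886), ribosomal (35) and predicted (1794) rows were left out, 1.94% to 15.7% of a library's counts. edgeR filterByExpr left 11949 genes, all 10 members included.

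Groups and pools came from the labels. The main test was voomLmFit (edgeR 4.0.16, limma 3.58.1) with sample weights (0.430 to 1.96), TMM scaling and 1 model of 3 groups, with Benjamini-Hochberg adjustment over all genes and a threshold of 0.05. It lowers the residual degrees of freedom of genes with groups at 0 and drops no library. Log2 CPM used a prior count of 2. Single values were tested by exact two-sided permutation. Alternatives were limma-trend, DESeq2 1.42.0, quasi-likelihood in edgeR, other scaling and filters, mouse pool as a block, summed pools, 2 groups only and each library left out. Chosen after seeing the data were fits of the libraries with keratin reads, fits of libraries over 1000000 counts, list calls by test, and member medians and *Itga2b* ratios to the floor of 3 reads with each library left out. Fits were tested on simulated data. Pools pair met and non-met libraries because they come from the same mice. Spearman correlations of deviations from group means over genes (no independent replicates) were -0.0204 to 0.0217 for met and non-met libraries of one pool. Counting error limits low values most in non-met 4, where 3 reads are 4.76 CPM.

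The members and lists were chosen with earlier results of these data known. Genes named are the members, the other integrin subunits with over 3 reads in any library, *Pecam1*, *Emcn* and *Cdh5*, fixed adhesion and ligand genes, up to 2 called genes per list and direction, and the 3 genes most correlated with each member at a mean of at least 5 log2 CPM, of which all 3 are printed for *Itgb1* and the closest for the others. Subunits below 3 reads, B230344G16Rik, Gm49395, Gm13684, *Fermt3*, *Vcam1*, *Ltbp2* and single marker genes were named outside this rule.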

Additional observations from a re-analysis of the deposited data

Results flagged for a closer look

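Among the 10 members, the lowest and highest of the 6 non-met libraries were compared with the rest of their group, and 1 library stood apart. *Itga6* in non-met 5 was at 1.589 log2 CPM (2.65 CPM, 5 reads), while the next lowest non-met library was at 6.11 and the highest at 7.96. The gap was 0.710 of the range, above the limit of 0.625 for 6 samples. Such a check marks about 1 group in 20 by chance, and 10 groups were checked.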

How the results depend on the processing

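Values are given in the order met against non-met, met against control and non-met against control, with the voomLmFit fit of all 11 libraries as the reference (50, 143 and 76 genes and 0, 1 and 1 member called). Of 740 member values under alternatives, 690 kept their direction and their side of the threshold and 35 changed sign, none of these past the threshold, and 10 lost and 5 gained a call, all of them *Itgb1*. The quasi-likelihood test called 17, 10 and 14 genes and 0 members in each comparison, DESeq2 326, 228 and 267 genes and 0 members, and limma-trend 2, 9 and 8 genes and 0 members. Of the pathway-list genes, voomLmFit called 2, 8 and 3, limma-trend 0, 2 and 0, the quasi-likelihood test 2, 2 and 1, and DESeq2 2, 2 and 2. Without sample weights 274 and 140 genes were called against control. Scaling by library size called 160 genes in non-met against control and 1 member in met against non-met (*Itgb1*, adjusted P = 0.0121). It moved the median of all genes from -0.09 to -0.23 in met against control and from -0.33 to -0.54 in non-met against control, and RLE scaling moved it from 0.08 to -0.09 in met against non-met. The share of called genes that were higher moved from 66.0% to 53.3% in met against non-met under RLE, and from 57.3% to 46.3% and from 28.9% to 13.8% against control under library size scaling. With no filter beyond 1 read 79, 429 and 184 genes and 1 member in met against non-met (*Itgb1*, adjusted P = 0.0310) were called, and with a mean of at least 5 CPM 35 genes in non-met against control. Summing libraries of one pool and group gave 24, 55 and 33 genes and 0 members in non-met against control (*Itgb1* adjusted P = 0.0729), and fitting only the 2 groups compared gave 80 genes in met against control.

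Pairing the libraries of the same mice (pool as fixed replicate block) left 27 genes and 0 members called in met against non-met, where *Itga9* was at -0.40 and *Itgav* at -0.14. Libraries with keratin reads gave 13 genes, with *Itga2* at 0.017, *Itgav* at -0.87 and *Itgb1* at 0.49 (adjusted P = 0.778). Libraries over 1000000 counts gave 44 genes in non-met against control, *Itgb5* at 0.64 in met against non-met and *Itga6* at -0.12 in non-met against control. Leaving out one library at a time gave 16 to 87, 36 to 293 and 32 to 228 genes, and 0 to 1 member in each comparison.

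Signs also turned for *Itga1* in non-met against control, at -0.031 by quasi-likelihood, -0.18 by limma-trend, -0.069 by library size and -0.30 to 0.26 with a library left out. *Itga6* in that comparison was at -0.26 by limma-trend, -0.48 without weights, -0.18 by library size, -0.093 without filter, -0.0042 at 5 CPM, -0.0063 with 2 groups and -0.73 to 0.84 with a library left out. In met against non-met *Itga9* was at -0.086 by limma-trend and -0.55 to 0.65 with a library left out, and *Itgav* at -0.064 by DESeq2 and -0.50 to 0.91. Left-out libraries also turned *Itga2* (-3.75 to 0.46) and *Itgb5* (-1.49 to 0.64) there. Against control they turned *Itga2* (-0.52 to 8.23), *Itga5* (-0.50 to 0.12) and *Itgb5* (-1.59 to 6.02) in met, and *Itga3* (-0.0024 to 1.90), *Itgb4* (-0.34 to 6.41) and *Itgb5* (-1.22 to 6.41) in non-met. The cause was not tested. Counting error covers the reads only, and the depth of non-met 4 limits members at few reads.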
